A study of Mus musculus with 21 samples.

Results

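The regions described here are the H3K4me1 regions of mouse embryonic stem cells that lie at gene promoters: every region whose centre is within 1 kb of the nearest annotated transcription start site, that is narrower than 10 kb and that has a level in all 8 groups of cells. There were 10362 such regions among the 186824 regions with levels in the deposited table, or 5.55%. They were chosen by position, not by level. A further 309 regions within 1 kb were left out for their width or a missing level. H3K4me1 was measured by CUT&RUN, in which an antibody tethers a nuclease to the mark and the released DNA fragments are sequenced. The 4 lines were each taken as naive cells, held with the cytokine LIF and 2 kinase inhibitors (LIF2i), and as formative cells, 63 hours after LIF2i withdrawal, which gives 8 groups of 2 libraries. WT cells and MLL3CD_MLL4CD cells, which carry CD alleles of both enzymes (CD taken here to stand for catalytically dead) and are called dCD below, are labelled as the R1 line. MLL3KO_MLL4fl cells, called floxed, lack MLL3 and keep a floxed MLL4, and MLL3KO_MLL4KO cells, called DKO, lack both, with no parent line in their labels. The floxed line is therefore the control of DKO and WT the control of dCD, and in a comparison of floxed with WT the loss of MLL3 and the line cannot be told apart. The 2 libraries of each group were cultured, collected and prepared independently per the series' design text, and whether a genotype is 1 clone is not given in the sources used here.

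The Kmt2c and Kmt2d genes encode MLL3 and MLL4, a pair of histone methyltransferases known for placing H3K4me1 at enhancers. At active promoters the nucleosomes next to the start site usually carry H3K4me3, placed by SET1A/B and by MLL1/2, while H3K4me1 sits further out on the flanks. Many mammalian promoters are CpG islands, stretches rich in CG dinucleotides that recruit SET1 and MLL1/2 through CXXC domains, and promoters poor in CpG are more often those of tissue-restricted genes.

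Levels were deposited as 1 pooled log2 value per region and group, so there is no spread between replicates and a difference between groups is a size without a test. The exception is formative against naive WT cells, for which the authors' deposited table carries a false discovery rate (FDR) per region. For each region the levels were turned back into normalized reads, and a difference is given as log2, so that 1.00 is 2-fold. Sequencing depth per library is not given in the table. Antibody catalogue numbers differ between fields of the labels: the one in each sample's antibody field is known as that of an H3K4me1 antibody and the one in the extraction protocol as that of an H3K27ac antibody, so the antibody used cannot be told from the labels, and the mark is named as labelled. In these bulk samples, fewer cells with the mark and less mark per cell cannot be told apart. Promoter regions had a median of 53.0 normalized reads in naive and 59.8 in formative WT cells, 58.6 and 61.4 in floxed, 73.3 and 79.9 in DKO and 69.9 and 82.4 in dCD. Their median width was 2399 bases (386 to 9982).

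The regions covered 9685 named genes, 570 of them with more than 1 region, and 23 regions had no gene name. The start site of the named gene lay inside 9390 regions (90.6%), and 10330 regions (99.7%) had a RefSeq transcript start within 1 kb of their centre. The centre was upstream of the start site in 4705 regions and downstream in 5648. The deposited annotation called 5817 of them Promoter-TSS, 3008 Intron and 878 Exon. Promoter regions were richer in CpG than distal regions, defined as the 172246 regions beyond 1 kb of a start site and narrower than 10 kb. The median was 2.32 CpG per 100 bases at promoters and 1.13 at distal regions. The classes were made from the mm10 sequence alone. A high-CpG region holds a 500-base window with an observed to expected CpG ratio over 0.75 and GC over 55%, a low-CpG region has no window with a ratio over 0.48, and the rest are intermediate. Of the promoter regions 4438 (42.8%) were high, 3449 (33.3%) intermediate and 2475 (23.9%) low, against 2.86%, 25.7% and 71.4% of distal regions.

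Sequences of 6 promoters show the range of CpG content that the results turn on. Each is 300 bases of mm10 from RefSeq's assembly, from 250 before the annotated start site to 50 from it on, on the strand of the gene and 5′ to 3′, with CpG in capitals. The promoter of Sema3a (chr5:13396534-13396833, plus strand, 2 CpG) was chosen as the one with the largest gain in formative WT cells. Vmn1r11 (chr6:57137103-57137402, plus, 0 CpG) was the lowest in formative DKO cells that has a start site inside its region, Defa24 (chr8:21734244-21734543, plus, 0 CpG) had the largest loss in WT, and Prdx6b (chr2:80292220-80292519, plus, 4 CpG) was the highest in formative DKO. Nell2 (chr15:95528709-95529008, minus, 5 CpG) stands for promoters higher in both mutants and was chosen after its values were seen, and Tfcp2l1 (chr1:118627673-118627972, plus, 17 CpG) is a textbook naive pluripotency gene whose H3K4me1 differed little between groups.
Sema3a: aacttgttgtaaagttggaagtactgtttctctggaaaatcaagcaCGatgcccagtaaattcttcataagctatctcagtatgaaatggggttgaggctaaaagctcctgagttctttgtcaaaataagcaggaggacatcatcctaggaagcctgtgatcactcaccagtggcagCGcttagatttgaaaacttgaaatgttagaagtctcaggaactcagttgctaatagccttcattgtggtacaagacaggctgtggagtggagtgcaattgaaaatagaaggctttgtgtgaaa
Vmn1r11: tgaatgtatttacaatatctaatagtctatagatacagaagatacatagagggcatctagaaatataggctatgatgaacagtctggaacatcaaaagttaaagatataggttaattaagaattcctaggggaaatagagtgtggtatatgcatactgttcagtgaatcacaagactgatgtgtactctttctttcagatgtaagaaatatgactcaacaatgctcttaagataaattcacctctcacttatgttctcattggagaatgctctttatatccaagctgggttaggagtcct
Defa24: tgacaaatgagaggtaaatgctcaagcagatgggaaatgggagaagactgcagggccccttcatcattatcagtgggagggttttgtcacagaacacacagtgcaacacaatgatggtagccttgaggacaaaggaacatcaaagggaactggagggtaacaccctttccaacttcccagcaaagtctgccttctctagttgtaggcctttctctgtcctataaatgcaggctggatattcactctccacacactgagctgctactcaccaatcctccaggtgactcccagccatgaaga
Prdx6b: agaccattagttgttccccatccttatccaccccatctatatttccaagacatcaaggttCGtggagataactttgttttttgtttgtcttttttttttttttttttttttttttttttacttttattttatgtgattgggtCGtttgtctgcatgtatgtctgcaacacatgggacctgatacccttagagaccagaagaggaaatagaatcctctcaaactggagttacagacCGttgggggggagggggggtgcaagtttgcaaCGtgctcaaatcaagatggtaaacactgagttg
Nell2: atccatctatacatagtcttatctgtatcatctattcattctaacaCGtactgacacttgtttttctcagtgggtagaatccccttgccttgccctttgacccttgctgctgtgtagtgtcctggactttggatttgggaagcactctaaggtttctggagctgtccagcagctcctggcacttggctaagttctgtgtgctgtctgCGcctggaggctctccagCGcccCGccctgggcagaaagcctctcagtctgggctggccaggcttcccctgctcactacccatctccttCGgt
Tfcp2l1: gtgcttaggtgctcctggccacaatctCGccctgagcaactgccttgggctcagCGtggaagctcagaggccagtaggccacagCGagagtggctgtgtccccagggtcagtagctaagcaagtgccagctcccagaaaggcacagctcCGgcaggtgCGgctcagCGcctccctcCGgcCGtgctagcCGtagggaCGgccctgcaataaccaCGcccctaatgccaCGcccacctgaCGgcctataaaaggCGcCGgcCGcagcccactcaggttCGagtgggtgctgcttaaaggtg

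Short motifs were counted on both strands of the same 300-base window in the 9390 promoter regions that hold their gene's start site. The GC box GGGCGG, bound by Sp and KLF factors, occurred in 45.7% of them and in 46.3% of the 21773 RefSeq protein-coding promoters. The CCAAT box occurred in 37.3% (38.5% of all RefSeq promoters), TATAAA in 9.66% (13.1%), the ETS site CCGGAAG in 10.6% (11.7%), the E-box CACGTG in 8.01% (7.78%), the octamer ATGCAAAT in 1.59% (1.69%) and CGCATGCG, the core of the NRF1 site, in 2.36% (2.39%). None of the 7 motifs contains another, although occurrences can share bases. The promoter regions with H3K4me1 were thus close to promoters at large in these letters, and the subsets described below were not.

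The first comparison asked how H3K4me1 at promoters differs between naive and formative WT cells. Promoters gained the mark more often than they lost it: in the authors' deposited table, 691 promoter regions (6.67%) were higher in formative cells at an FDR under 0.05 and 245 (2.36%) were lower. Over all regions the same threshold called 9.82% gained and 10.5% lost, so both shares at promoters were below the background, the lost share by far more. Of the called promoter regions 73.8% were gains, against 48.6% of called distal regions. The median difference over all promoter regions was 0.18 (quartiles -0.12 and 0.46), against -0.05 at distal regions, and 66.3% of promoter regions were above 0. By size, 485 promoter regions (4.68%) were at least 2-fold higher in formative WT cells and 240 (2.32%) at least 2-fold lower, where the background was 11.1% and 11.4%.

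Gains and losses were spread unevenly over the CpG classes. By the FDR in the authors' deposited table, low-CpG promoters had 269 gained and 131 lost regions of 2475 (10.9% and 5.29%), intermediate ones 223 and 87 of 3449 (6.47% and 2.52%), and high-CpG ones 199 and 27 of 4438 (4.48% and 0.608%). Over all regions the same FDR of the authors' deposited table called 11.2% of low-CpG regions gained and 10.0% lost, 6.76% and 13.2% of intermediate ones and 7.54% and 3.94% of high-CpG ones. The gained shares of low-CpG and intermediate promoters were thus near the background of their class, and the lost shares were below it in every class. Windows of gained promoters held a median of 6 CpG and those of lost promoters 4, against 12 over all promoter regions. GGGCGG was present in 34.4% of gained and 16.1% of lost windows, and TATAAA in 12.4% and 15.7%.

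Sema3a, encoding a secreted semaphorin that guides axons, had the largest gain among regions with at least 32 reads in the higher state. Its region at chr5:13395963-13397157, with its centre 224 bases upstream of the start site, held 4.92 normalized reads in naive and 48.3 in formative WT cells, 5.44 and 44.1 in floxed, 8.09 and 11.2 in DKO, and 5.98 and 23.0 in dCD. The formative value was far above the naive one in both control lines, less so in dCD, and in DKO the 2 states were close. The WT difference was 3.23, with an FDR of 7.61e-07 in the authors' deposited table. Bmp5, a ligand of the BMP family, held 29.9 and 137 reads in WT, 41.5 and 107 in floxed, 45.7 in both DKO states, and 28.6 and 42.2 in dCD. Its naive levels were similar in all 4 lines, and its formative levels were high in the controls alone (WT difference 2.13, FDR 4.43e-11 in the authors' deposited table; Bmp5 was picked after its values were seen). Pde4b, a cAMP phosphodiesterase, went from 66.5 to 292 reads in WT and from 92.5 to 366 in floxed, but from 121 to 148 in DKO and from 98.1 to 195 in dCD. The gain at this broad region was thus smaller in both mutants, and it was likewise named after its values were seen.

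High-CpG gains, also chosen after their values were seen, did not share one pattern. Cfap299, of the cilia and flagella associated genes, held 73.0 and 222 reads in WT, 92.0 and 215 in floxed, 137 and 169 in DKO, and 99.3 and 170 in dCD. Tmx4, a thioredoxin-related membrane protein, held 41.0 and 116 in WT, 54.5 and 122 in floxed, 83.6 and 89.3 in DKO, and 81.5 and 106 in dCD. At both the mutants' naive values lay above the naive controls and their formative values below the formative controls, so the span between states was narrower from both ends. At Ctnnd2 formative dCD lay 0.29 above WT and formative DKO at -0.01 against floxed, at Eif2s2 both formative mutants were above their controls (0.53 in DKO and 0.35 in dCD), and at Tagap1 the formative mutants parted (0.46 in DKO and -0.38 in dCD). The WT differences between states at Ctnnd2, Eif2s2 and Tagap1 were 1.42, 1.40 and 1.57, and those in floxed were smaller, at 0.38, 0.03 and 0.52.

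The other named gains were the vomeronasal receptor Vmn1r11 (5.88 to 50.5 reads in WT), the olfactory receptors Olfr1311 (3.93 to 33.8) and Olfr576 (8.89 to 56.8), the defensin Defb10 (10.8 to 72.8), Zpld1 (5.38 to 39.4), and the predicted genes Gm5771 (6.23 to 48.5) and Gm18853 (7.74 to 64.5). In floxed cells all 7 were higher in the formative state too, by 1.18 to 2.68 on the log2 scale, and in DKO and dCD the differences were at most 0.96 and 0.66. How reads that match several members of a gene family were placed is not given in the sources used here, so values for single members are uncertain.

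Losses in WT were led by Defa24, an intestinal alpha-defensin, at chr8:21733455-21734870, with 36.8 reads in naive and 4.10 in formative WT cells. It held 11.8 and 6.27 in floxed, 6.87 and 3.33 in DKO, and 15.2 and 9.10 in dCD, so its naive WT value stood above all the others, floxed included. The WT difference was -3.04 (FDR 0.000124 in the authors' deposited table). Pramel6, of a gene family known from naive cells and early embryos, went from 47.6 to 10.3 reads in WT and from 23.4 to 4.94 in floxed, and held 7.24 and 5.44 in DKO and 11.6 and 10.4 in dCD. The naive mutants were thus already near the formative level of the controls at Pramel6. Olfr972 (74.1 to 16.5 in WT), Lmntd1 (64.9 to 12.3) and Cd300c (86.4 to 20.7) also fell in WT by that FDR, and in naive DKO they held 26.7, 35.1 and 21.4 reads. The same FDR called A630010A05Rik (42.7 to 6.21 reads in WT), Olfr1128 (40.8 to 5.94), E030025P04Rik (53.4 to 9.96) and Saxo1os (67.7 to 15.7), and the 8 promoters with the largest losses (these 4, Defa24, Pramel6, Olfr972 and Lmntd1) were all low-CpG.

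Fewer promoter regions differed 2-fold between the states in each mutant than in its control. At least 2-fold higher in formative cells were 329 promoter regions (3.18%) in floxed, 25 (0.241%) in DKO and 83 (0.801%) in dCD, against backgrounds of 9.33%, 1.2% and 1.37%. At least 2-fold lower were 231 (2.23%), 30 (0.290%) and 65 (0.627%), against 10.6%, 1.25% and 2.47%. The counts in the mutants were small over the whole table, not only at promoters. After centring every group on its median the shares were 0.318% higher and 0.232% lower in DKO and 1.16% and 0.425% in dCD, against 1.34% and 1.09%, and 1.80% and 1.89%, over all regions. The medians over all promoter regions stayed above 0 in every line, at 0.18 in WT, 0.08 in floxed, 0.12 in DKO and 0.23 in dCD, so the medians were not smaller in the mutants.

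The regions called in WT were followed in the other lines, whose libraries had no part in the call. The 691 gained promoters had a median difference between states of 0.95 in WT, which chose them, 0.65 in floxed, 0.21 in DKO and 0.41 in dCD, and 682 of them were above 0 in floxed, 545 in DKO and 604 in dCD. Over all promoter regions the medians were 0.08 in floxed, 0.12 in DKO and 0.23 in dCD. Most promoter regions at large were therefore above 0 in these lines too, and the counts above 0 are to be read against that. The 245 lost promoters had medians of -1.06 in WT, -0.88 in floxed, -0.18 in DKO and -0.28 in dCD. At distal regions gained in WT the medians were 1.06 in floxed, 0.14 in DKO and 0.25 in dCD. CpG class separated the gained promoters. At the 199 high-CpG gains the medians were 0.52 in floxed, 0.21 in DKO and 0.46 in dCD, and at the 269 low-CpG gains they were 0.92, 0.16 and 0.31. In formative cells, DKO minus floxed had a median of 0.11 at the high-CpG gains and -0.85 at the low-CpG gains, where 27 of 269 were above 0. The low-CpG gains were thus far below their control in formative DKO, and the high-CpG gains were not. The same order held for dCD minus WT (0.21 and -0.92), although WT libraries chose these regions. Centring moved the low-CpG values to -0.64 and -0.52 and the high-CpG values to 0.32 and 0.61. Over all 691 gained promoters the formative medians were -0.21 in DKO and -0.16 in dCD, and with centring -0.01 and 0.24, so the direction in dCD depended on the scaling and the DKO median came close to 0.

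The next comparison set each mutant against its control within a state. On the deposited scale H3K4me1 at promoters was mostly higher in both mutants than in their controls, while it was mostly lower at distal regions. DKO minus floxed had a median of 0.39 at promoters (quartiles 0.05 and 0.63) and -0.22 at distal regions in the naive state, and 0.41 (0.04 and 0.70) and -0.17 in the formative state. For dCD minus WT the medians were 0.42 (0.07 and 0.68) and -0.32 (naive), and 0.48 (0.07 and 0.76) and -0.33 (formative). Between 77.3% and 78.2% of promoter regions were above 0 in these 4 comparisons, against 30.5% to 41.9% of distal regions. The floxed minus WT difference was smaller, with promoter medians of 0.15 in naive and 0.05 in formative cells.

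**Figure D1:**
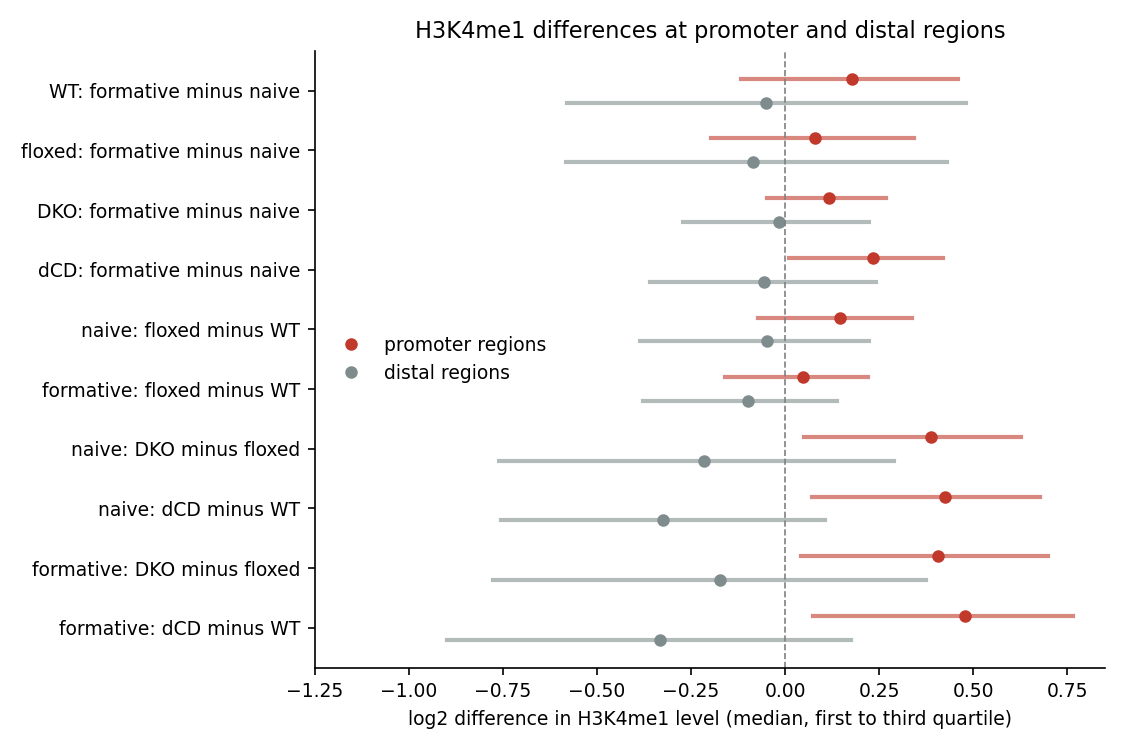
Median log2 difference in H3K4me1 level (points) with the quartile range over regions (lines), for 10362 promoter and 172246 distal regions in 10 comparisons. Promoter medians lie above 0 in every row, from 0.05 to 0.48, and in the 4 mutant rows at the bottom the distal medians lie below 0, from -0.33 to -0.17; the lines show the spread over regions, not over replicates.

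In density, promoter regions held a median of 24.7 reads per kb in formative WT cells and 35.2 in formative dCD, and 25.7 in floxed against 34.3 in DKO. Distal regions held 20.0 and 14, and 17.8 and 14.6. The gap in density between promoters and distal regions was thus wider in each mutant than in its control. The promoter median exceeded the distal median on 20 of 20 chromosomes in each of the 4 comparisons, by 0.49 on chromosome 8 to 1.08 on X in formative DKO minus floxed. The wide gap on X came from its distal regions, with a median of -0.71, since its 277 promoter regions had 0.37 against 0.41 over all chromosomes.

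The values are relative to the deposited scaling, under which the median over all 186824 regions was itself below 0 (-0.18 in naive and -0.13 in formative DKO minus floxed, and -0.29 in both states for dCD minus WT). When every group was centred on its median over all regions, the promoter medians became 0.60, 0.62, 0.78 and 0.88 in that order, and with quantile scaling 0.55, 0.55, 0.74 and 0.77. The distal medians, which the centring itself brings close to 0, became -0.00, 0.04, 0.03 and 0.07 with centring. With quantile scaling they were 0.01, 0.02, -0.01 and 0.02. Centring shifts all regions of a group by the same amount, so it cannot change the gap between promoters and distal regions. Quantile scaling can, and with it promoters were still above distal regions. Whether distal regions were below their control depended on the scaling. A gain in absolute amount of mark cannot be read from these values, since use of the yeast spike-in for scaling is not given in the sources used here.

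Counted by size, 475 promoter regions (4.58%) were at least 2-fold higher in naive DKO than in floxed cells and 298 (2.88%) at least 2-fold lower, where the background was 4.36% and 15.9%. For naive dCD against WT the counts were 545 (5.26%) and 236 (2.28%), with a background of 1.55% and 13.9%. In formative cells 779 (7.52%) were higher and 343 (3.31%) lower in DKO, with a background of 6.47% and 16.7%, and 954 (9.21%) and 387 (3.73%) in dCD, with a background of 2.59% and 20.1%. The lower shares at promoters were far under the background in all 4 comparisons, the higher shares were well above the background in dCD, and the higher shares in DKO were close to it. Centring on the median over all regions moved the higher and lower shares to 12.7% and 1.63% (naive DKO), 28.1% and 0.666% (naive dCD), 18% and 2.11% (formative DKO) and 39.1% and 1.51% (formative dCD). With the same centring the background was 8.06% and 10.6%, 6.80% and 5.63%, 11.2% and 11.8%, and 10.8% and 9.69%, in the same order, so that the higher share at promoters was above it in DKO too. Floxed against WT gave 57 higher (0.55%) and 133 lower (1.28%) in naive cells, with a background of 0.864% and 4.38%, and 23 (0.222%) and 133 (1.28%) in formative cells, with a background of 0.526% and 3.83%. Centring turned these splits to 1.26% and 0.791% (naive) and 0.531% and 0.772% (formative), with a centred background of 1.54% and 2.87%, and 1.05% and 2.54%.

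CpG content ordered the promoters in every mutant comparison. In formative dCD minus WT the median was 0.65 at high-CpG promoters, 0.45 at intermediate and -0.14 at low-CpG ones. In formative DKO minus floxed these were 0.54, 0.40 and -0.07, in naive DKO minus floxed 0.48, 0.37 and 0.00, and in naive dCD minus WT 0.55, 0.41 and -0.07. Of the 4438 high-CpG promoters, 595 (13.4%) were at least 2-fold higher in formative dCD and 1 was at least 2-fold lower, and 96.5% were above 0. In formative DKO 328 were higher and 2 lower, with 92.4% above 0. Low-CpG promoters lay on both sides, with 159 higher and 304 lower in formative DKO and 87 higher and 325 lower in formative dCD, of 2475. Over all regions of any class 6.47% were higher and 16.7% lower in formative DKO, and 2.59% and 20.1% in formative dCD. The formative low-CpG medians near 0 changed sign with centring, to 0.14 in DKO and 0.26 in dCD. Centring cannot change the order of the classes. With quantile scaling, which can, the order stayed (formative 0.68, 0.53 and 0.11 in DKO, and 0.95, 0.73 and 0.18 in dCD).

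**Figure D2:**
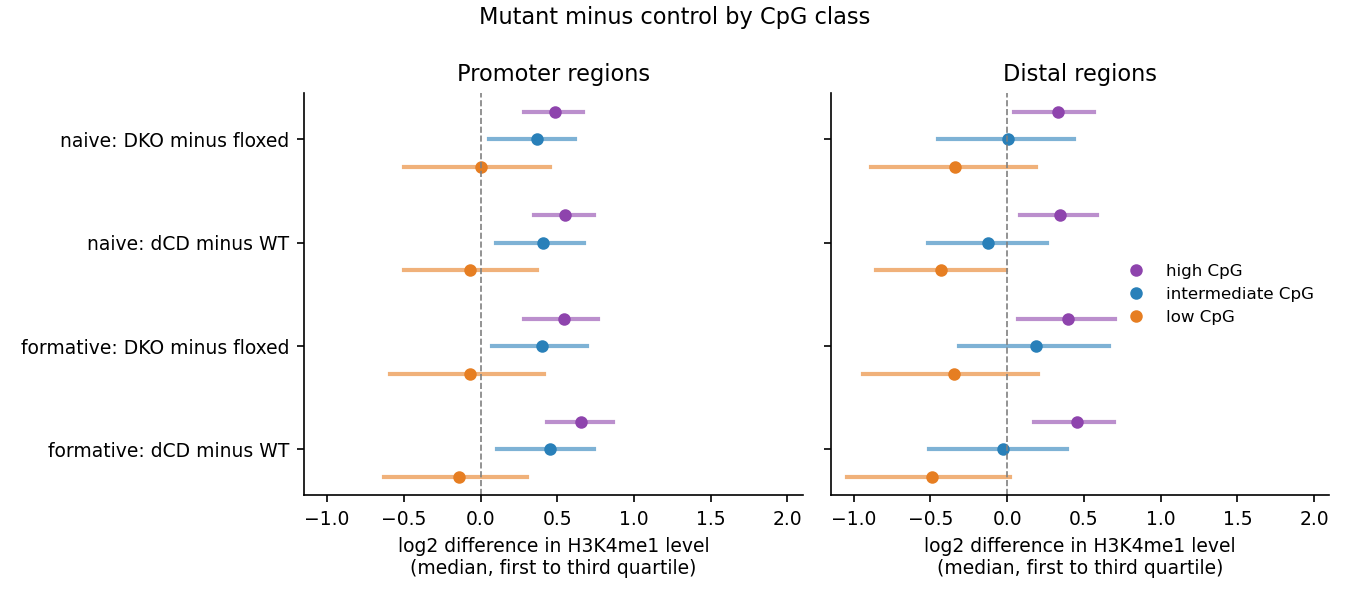
Median log2 difference between mutant and control (points) with the quartile range over regions (lines), by CpG class, at promoter regions (left) and distal regions (right). High-CpG regions lie highest and low-CpG regions lowest in each comparison on both sides, and at promoters the high-CpG medians run from 0.48 to 0.65 and the low-CpG medians from -0.14 to 0.00.

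High-CpG regions away from promoters showed the same direction. The 4919 high-CpG distal regions had medians of 0.33, 0.34, 0.39 and 0.46 in naive DKO, naive dCD, formative DKO and formative dCD against their controls. With high-CpG regions alone the promoter median exceeded the distal median by 0.15, 0.21, 0.15 and 0.20, where over all regions the excess was 0.60, 0.75, 0.58 and 0.81. Low-CpG distal regions had medians of -0.34, -0.43, -0.35 and -0.49, so low-CpG promoters lay above low-CpG distal regions. The classes depend on the window: with the CpG ratio taken over the whole region, the low-CpG promoter medians were 0.28, 0.28, 0.28 and 0.31, above 0 in place of at or below it, while the order of the classes stayed.

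The level in the controls also ordered the DKO minus floxed differences. Promoters were divided into 5 groups of equal size by their reads per kb in formative WT cells, a group that has no part in DKO minus floxed. From the lowest to the highest group the formative DKO minus floxed medians at promoters were 0.53, 0.53, 0.47, 0.36 and 0.18. The corresponding groups of distal regions had 0.29, 0.03, -0.21, -0.46 and -0.71. The densest promoters (31.5 reads per kb and above) were thus still higher in DKO, whereas the densest distal regions (28.1 and above) were lower. For formative dCD minus WT, with groups by formative floxed cells, the promoter medians were 0.26, 0.56, 0.58, 0.53 and 0.40, with the smallest in the lowest group, so they were not in the order of the level.

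Position along the gene mattered on both sides of the start site. For regions binned by the distance of their centre, formative DKO minus floxed had a median of -0.23 between 3000 and 2500 bases upstream, 0.00 between 2000 and 1500, 0.30 between 1000 and 500, 0.45 in the 500 bases downstream and 0.52 between 1500 and 2000 downstream. It was still 0.30 between 3000 and 3500 bases downstream. Formative dCD minus WT was highest between 500 and 1500 bases downstream (0.54 in both bins) and was 0.17 between 3000 and 3500. The raised zone thus reached further into the gene than upstream of it. CpG density was nearly even within 1 kb of the start site, at 2.37 per 100 bases 1000 to 500 bases upstream and 2.31 at 500 to 1000 downstream. Between 1500 and 2000 bases it was 1.67 downstream and 1.47 upstream, and between 2000 and 2500 it was 1.44 and 1.23. At 3000 to 3500 downstream it had returned to 1.19.

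**Figure D3:**
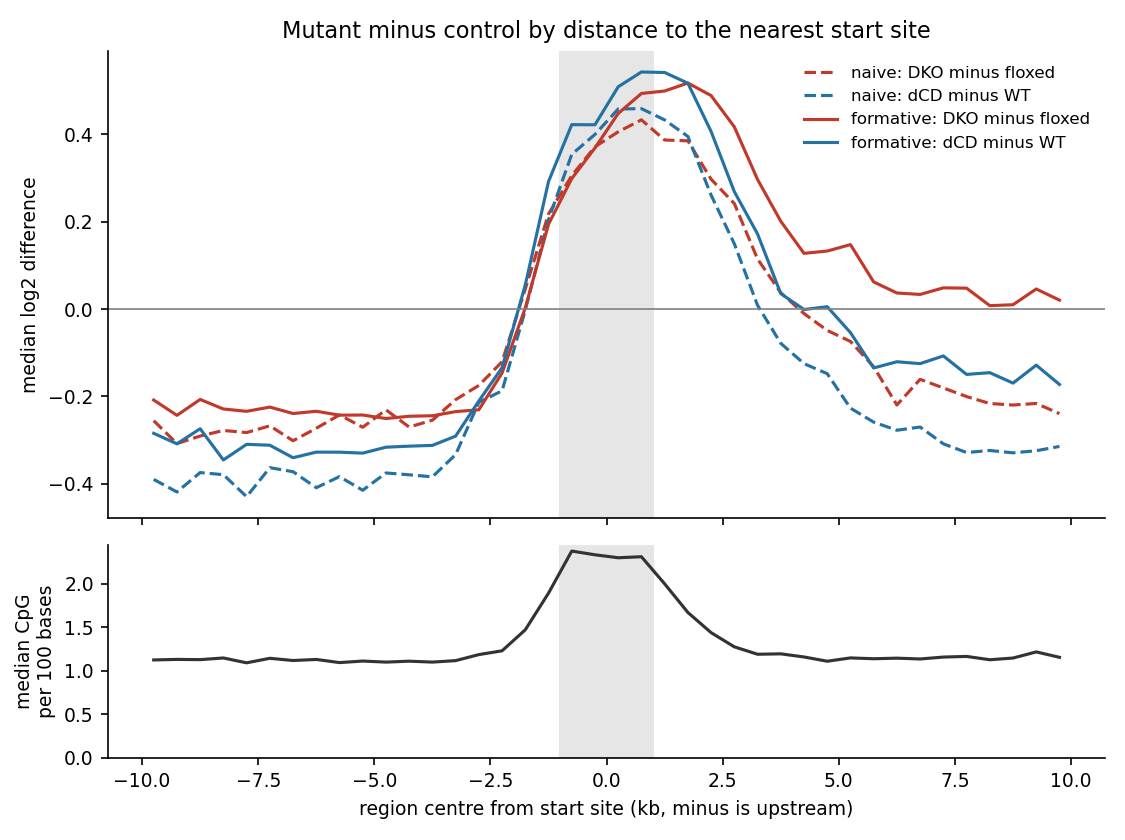
Median log2 difference between mutant and control (upper panel) and median CpG per 100 bases (lower panel) in 500-base bins of the distance from region centre to start site, in kb, with upstream as minus and the promoter window within 1 kb shaded. All 4 lines rise above 0 around the start site, are lopsided towards the gene body, and the formative DKO minus floxed line stays at 0.30 between 3000 and 3500 bases downstream, where CpG density is at 1.19.

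The 1 kb limit did not fall on a step. The 826 regions just inside the limit had a formative DKO minus floxed median of 0.40 and the 759 just outside it 0.38, and for dCD minus WT the values were 0.50 and 0.43. Narrow, middle and wide promoter regions (up to 1796, 3201 and 9982 bases) had formative DKO minus floxed medians of 0.46, 0.45 and 0.32 and dCD minus WT medians of 0.52, 0.53 and 0.39. High-CpG regions kept medians above 0 at every distance from a start site (formative DKO minus floxed 0.54 within 1 kb, 0.44 at 1 to 2 kb, 0.31 at 2 to 5 kb and 0.47 beyond 50 kb).

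The mutants were then set beside each other; DKO minus floxed and dCD minus WT share no libraries. Over the 10362 promoter regions the differences had a Pearson r of 0.61 in naive and 0.71 in formative cells, as a description across regions that share the same 8 pooled groups. In both states most promoter regions were above 0 in both mutants (69.6% naive, 70.4% formative), against 21.6% and 26.3% of distal regions. In formative cells 199 promoters were at least 2-fold higher in both, which is 25.5% of those higher in DKO and 20.9% of those higher in dCD, where over all regions the shares were 15.0% and 37.4%. At least 2-fold lower in both were 201, which is 58.6% of those lower in DKO and 51.9% of those lower in dCD, against 68.8% and 57.4% over all regions. In naive cells 60 were higher in both, or 12.6% of those in DKO and 11.0% in dCD (7.17% and 20.2% over all regions). Lower in both were 108, or 36.2% and 45.8% (49.4% and 56.4% over all regions). Over all regions 584 were higher and 14681 lower in both naive mutants.

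The shared sets differed in CpG and in their WT history. Of the 199 higher in both, 107 (53.8%) were high-CpG, 0 were gained in WT and 12 were lost by the FDR of the authors' deposited table. Over all promoter regions 42.8% were high-CpG and 23.9% low-CpG, and 6.67% were gained and 2.36% lost in WT by that FDR. The share of high-CpG regions among those higher in both was thus only moderately above that of promoters at large. Of the 201 lower in both, 0 were high-CpG, 177 (88.1%) were low-CpG and 86 (42.8%) were gained in WT by that FDR. Of the 108 lower in both in naive cells, 102 were low-CpG and 34 were among those lost in WT by the same FDR. The dCD side of these counts shares WT libraries with the WT call, and the DKO side does not. In the start-site windows, the 156 promoters higher in both had a median of 17 CpG and CCGGAAG in 24.4%, CACGTG in 12.8% and CGCATGCG in 5.77%, and the 186 lower in both had a median of 2 CpG and these motifs in 1.61%, 2.15% and 0.538%. TATAAA went the other way, at 7.05% and 21.0%. The ETS, E-box and NRF1 motifs each contain CpG, so their counts also follow CpG content, and a match is not evidence that a factor binds.

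**Figure D4:**
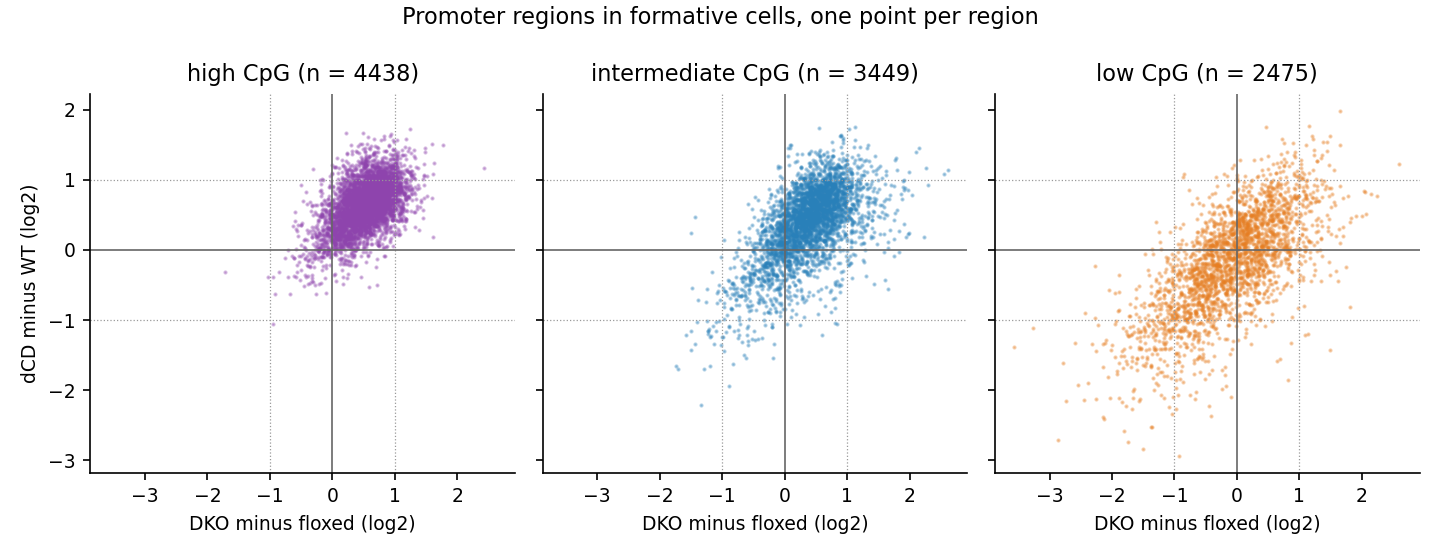
Each point is 1 promoter region in formative cells, with the log2 difference of DKO minus floxed on the horizontal and dCD minus WT on the vertical axis, in panels for 4438 high-CpG, 3449 intermediate and 2475 low-CpG regions; dotted lines mark 2-fold. High-CpG points gather in the upper right, where 92.4% lie above 0 for DKO and 96.5% for dCD, and low-CpG points spread along the diagonal into the lower left.

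Nell2, a secreted glycoprotein of the nervous system, had 2 high-CpG promoter regions, both higher in both mutants. The one at chr15:95528246-95529102 held 19.8 and 15.2 reads in naive and formative WT cells, 19.7 and 15.6 in floxed, 32 and 47.2 in DKO, and 34.3 and 43.5 in dCD. All 4 mutant values were above all 4 control values, and the formative differences were 1.59 for DKO and 1.51 for dCD. The upstream of 2 Vav3 regions, at a guanine nucleotide exchange factor gene, held 28.2 and 28.6 in WT, 29.9 and 30.9 in floxed, 65.4 and 77.7 in DKO, and 55.1 and 72.0 in dCD. Its controls were nearly constant over both lines and states, and the mutants were 0.95 to 1.32 above them on the log2 scale. Ppargc1b, a coactivator of mitochondrial genes, held 20.2 and 18.8 in WT, 21.7 and 18.7 in floxed, 52.4 and 52.6 in DKO, and 50.4 and 51.8 in dCD. Gm13710 and Ift52 were similar in formative cells (differences of 1.77 and 1.49 in DKO and 1.5 and 1.40 in dCD), and all of these were chosen after their values were seen.

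Zscan25, a zinc finger gene with a high-CpG promoter, lost the mark in WT and was named after its values were seen. It went from 193 to 83.3 reads in WT and from 156 to 93.3 in floxed, and held 266 and 275 in DKO and 238 and 179 in dCD. The formative mutants were 1.45 (DKO) and 1.01 (dCD) above their controls. The 27 high-CpG promoters lost in WT had a formative DKO minus floxed median of 0.84, with 27 of 27 above 0. Over all 4438 high-CpG promoters the median was 0.54, and the large majority were above 0 too. The 183 high-CpG distal regions lost in WT had a median of 0.75.

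**Figure D5:**
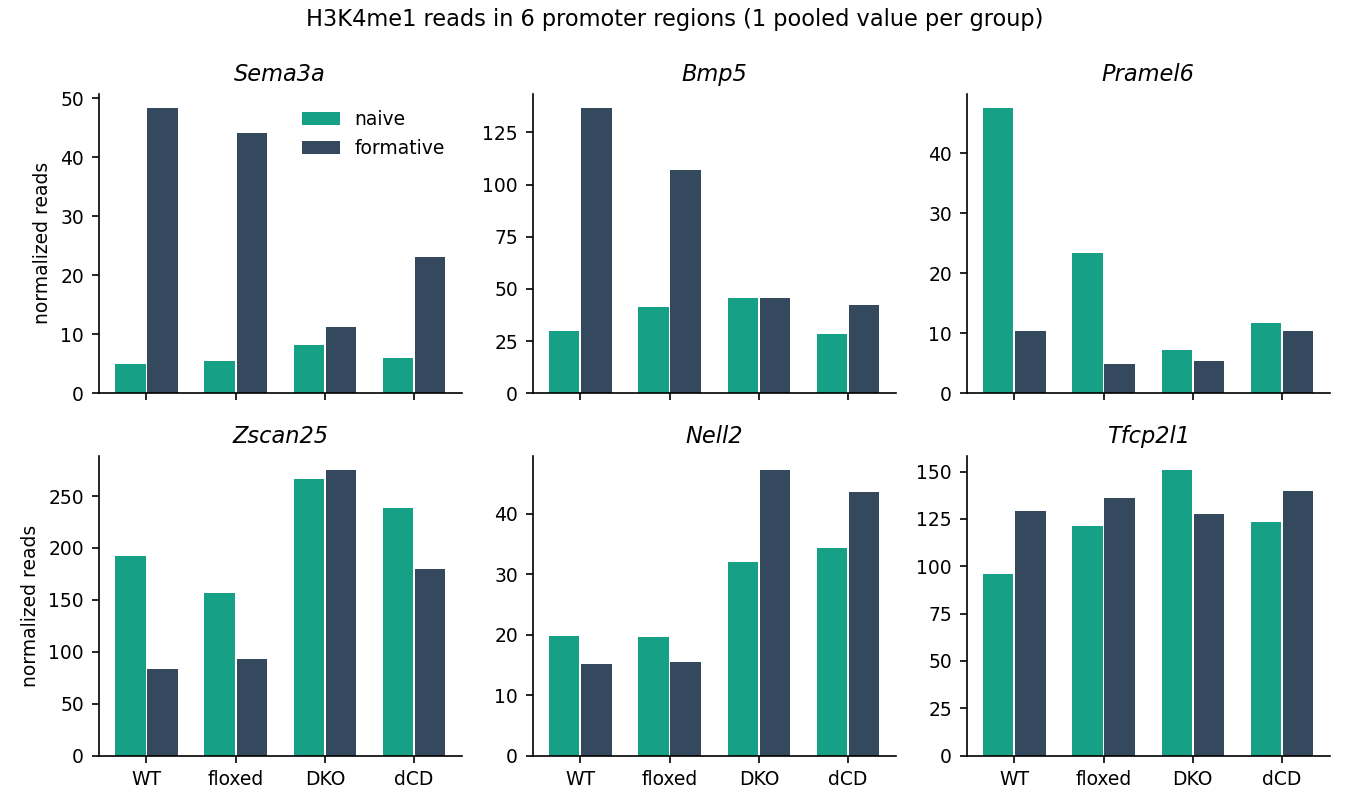
H3K4me1 at 6 promoter regions as normalized reads (vertical axes start at 0 and differ between panels), with 1 pooled value per bar for naive (green) and formative (dark) cells of 4 lines. Sema3a and Bmp5 were far higher in formative than in naive WT and floxed cells and not in DKO, Pramel6 was high in naive controls alone, Zscan25 and Nell2 were highest in the mutants, and Tfcp2l1 lay between 95.7 and 151 in all groups.

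Several of the highest promoters in DKO were ones at which the floxed control was itself below WT. Prdx6b held 62.2 and 41.3 reads in WT, 25.5 and 15.6 in floxed, 85.3 and 94.7 in DKO, and 99.4 and 88.0 in dCD. Its formative DKO minus floxed difference was 2.55, of which floxed lay 1.37 below WT. Gm5 (75.8 and 49.7 in WT, 24.0 and 19.3 in floxed, 128 and 98.1 in DKO, 127 and 95.5 in dCD), Kcnv2 and Xlr3a had the same shape, with floxed below WT by 1.33, 1.69 and 0.91 in formative cells. Pnma5 led in naive DKO at 2.59, with 15.6 reads in floxed and 102 in DKO, and its WT value was 47.7. In dCD minus WT the leaders were Sos2 in naive cells (7.14 reads in WT, 33.4 in dCD) and Dmrtc1c2 in formative cells (10.9 and 44.3). In each of these leaders the control group held few reads.

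Other named promoters were also higher in the mutants than in their controls. Mob2, a regulator of NDR kinases with a high-CpG promoter, held 22.6 and 43.5 reads in WT, 30.6 and 46.9 in floxed, 70.1 and 79.4 in DKO, and 75.9 and 84.7 in dCD. Pcdha8, a clustered protocadherin, held 13.0 and 14.2 in WT, 12.2 and 9.46 in floxed, 42.6 and 45.9 in DKO, and 27.6 and 32.3 in dCD. At both genes all 4 mutant values lay above all 4 control values. Terb2, a gene of meiotic telomere attachment, held 39.1 and 18.5 in WT, 45.9 and 23.6 in floxed, 54.9 and 51.9 in DKO, and 49.9 and 63.0 in dCD, so that only the formative controls stood apart. Of the remaining named promoters Ifne, 1700027F06Rik and Gm7538 led in naive DKO (2.24, 2.05 and 2.01), Kcnip4, Pcdha11 and Ccer1 in naive dCD (1.88, 1.75 and 1.75), and Gm5801, Speer4c and Ginm1 in formative dCD (1.76, 1.76 and 1.74).

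The lowest promoters in the mutants are given by example. Csn3, encoding kappa-casein, held 18.7 and 52.3 reads in WT, 22.0 and 62.4 in floxed, 9.90 and 13.7 in DKO, and 11.3 and 9.66 in dCD. Both formative controls stood apart from all other groups, and the formative differences were -2.15 in DKO and -2.38 in dCD. Krtap5-5, a keratin-associated protein, held 105 and 103 in WT, 125 and 149 in floxed, 29.9 and 44.0 in DKO, and 31.1 and 18.8 in dCD. Here the mutants were low in both states. Klk1, a kallikrein, held 160 and 89.7 in WT, 240 and 71.1 in floxed, 50.8 and 74.1 in DKO, and 52.0 and 56.1 in dCD, so the difference was largest in naive cells (-2.15 in DKO and -1.54 in dCD). Vmn1r11 was furthest below its control among those with a start site in the region, with 43.7 reads in formative floxed and 5.44 in formative DKO. Gbp10, an interferon-induced GTPase, held 42.4 and 6.72 in the same groups, and Mlana, a melanocyte antigen, 62.5 and 11.4. 4930503F20Rik, Gm8541, Olfr1272 and Unc93a2 completed the lowest sets in formative cells, and 1700001C19Rik, Olfr96, LOC105243090 and Vmn1r86 those in naive cells.

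Kcnj16, a potassium channel subunit, was low in both mutants in the naive state, with 40.8 and 25.2 reads in WT, 52.5 and 46.0 in floxed, 12.4 and 17.8 in DKO, and 8.76 and 11.2 in dCD. The mutants parted at Sptlc3, a subunit of serine palmitoyltransferase, which held 58.7 and 112 in WT, 71.1 and 105 in floxed, 15.1 and 22.3 in DKO, and 70.8 and 43.3 in dCD. Naive dCD thus lay 0.26 above WT where naive DKO lay at -2.11 against floxed. All the named promoters that were lowest in a mutant comparison were low-CpG.

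The pluripotency genes were largely outside the promoter set. Of 26 genes listed for naive pluripotency 8 had a promoter region (9 regions), of 24 formative and primed genes 6, and of 15 core pluripotency genes 6. The start sites of Otx2 and Dnmt3b lie in regions of 14446 and 25242 bases, and the nearest region of Fgf5, a textbook formative gene, was centred 1354 bases upstream (158 to 267 reads in WT, FDR 0.00667 in the authors' deposited table). Tfcp2l1, a transcription factor of naive cells, held 95.7 and 129 reads in WT, 121 and 136 in floxed, 151 and 128 in DKO, and 124 and 140 in dCD. Its groups overlapped, and its WT change had an FDR of 0.144 in the authors' deposited table. Pou5f1 (Oct4), a core factor, held 67.4 and 98.6 in WT, 82.7 and 84.5 in floxed, 93.9 and 121 in DKO, and 106 and 133 in dCD. The Pou5f1 region thus carried reads in every group, and its mutant values were slightly above the control in each state. None of the 6 core regions passed 2-fold in any mutant comparison, with formative medians of 0.61 in DKO and 0.45 in dCD. Of the naive regions, Klf2 was gained in WT (184 to 254 reads, FDR 0.0199 in the authors' deposited table), 1 of 2 Esrrb regions was lower in formative dCD (-1.08) and Nr0b1 was higher in naive DKO (1.19).

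Sall2, a spalt-like zinc finger factor on the formative list, was gained in WT from a low-CpG region. It held 13.5 and 51.0 reads in WT, 19.8 and 39.2 in floxed, 5.56 and 10.4 in DKO, and 9.96 and 28.0 in dCD. DKO was below every control value in both states (-1.80 and -1.89 against floxed), and dCD lay between. Hes6, a Hairy/Enhancer of split factor with a high-CpG promoter, was also gained in WT (147 to 246 reads, FDR 0.00261 in the authors' deposited table) and held 269 and 289 in DKO. Etv5 was 1.19 higher in formative dCD.

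The other gene lists are described by their counts beside the median over all promoter regions (0.41 in formative DKO minus floxed and 0.48 in formative dCD minus WT). Over all promoter regions 7.52% were 2-fold higher and 3.31% lower in formative DKO, and 9.21% and 3.73% in formative dCD, which counts of list and family members are to be read against. Of 84 developmental regulators known as Polycomb targets 20 had a promoter region (21 regions, 17 high-CpG), with a WT transition median of 0.47 and 19 of 21 above 0. Most promoter regions at large were above 0 in WT as well, with a median of 0.18. Pax1 (258 to 363 reads) and Foxa2 (156 to 239) were gained by the FDR of the authors' deposited table. The formative mutant medians of this list were 0.44 and 0.67, and Tbx2 and Sim2 were 2-fold higher in naive DKO (1.00 and 1.16). Of 32 germ-line genes 15 had a region, with formative medians of 0.75 in DKO and 0.65 in dCD. In formative DKO 6 of the 15 were at least 2-fold higher: Ddx4 (1.35), an RNA helicase, Stk31 (1.24), Tex11 (1.23), Asz1 (1.21), Syce1 (1.07) and Tdrd9 (1.02), the last 4 known from meiosis or the piRNA pathway. In formative dCD 3 were, Stk31 (1.73), Tex11 (1.45) and Syce1 (1.16). Several of these had few reads in the control, as at Ddx4 with 7.09 in formative floxed and 18.4 in DKO.

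Ribosomal protein genes had 30 regions at 29 of 74 genes, with formative medians of 0.66 in DKO and 0.64 in dCD, and 30 of 30 were above 0 in dCD, 6 of them past 2-fold. Over all promoter regions 70.4% were above 0 in both formative mutants. Rpl19 held 36.9 reads in formative WT and 79.1 in formative dCD, and 45.5 in floxed and 92.8 in DKO. Housekeeping genes had 12 regions at 10 of 20 genes, with formative medians of 0.31 and 0.44, and Ywhaz (1 of 3 regions, 1.42), B2m (1.21) and Sdha (1.15) were 2-fold higher in dCD. The glycolysis list (5 regions of 23 genes) had medians of 0.24 and 0.42 with none past 2-fold. Imprinted genes had 12 regions, with medians of 0.52 and 0.57, and Nap1l5 was past 2-fold in both mutants (1.21 and 1.41). In formative DKO Ube3a was 2-fold higher too (1.11, and 0.87 in dCD) and Snrpn 2-fold lower (-1.13, and -0.81 in dCD). Among 21 genes of the H3K4 methylation machinery 5 had a promoter region and none passed 2-fold in formative cells, and those of Kmt2c and Kmt2d were centred beyond 1 kb.

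Lists of other cell types were counted by the FDR of the authors' deposited table, which called 6.67% of promoter regions gained and 2.36% lost. Endoderm genes had 8 regions, with Foxa2 and Cer1 gained and 1 of 2 Hnf4a regions lost in WT (103 to 37.5 reads) by the authors' deposited table's FDR. Cer1, a secreted inhibitor of Nodal and BMP, held 57.1 and 115 in WT, 64.9 and 110 in floxed, 50.2 and 43.4 in DKO, and 45.1 and 41.9 in dCD, so the formative value was the higher one in both controls and not in the mutants. Fibroblast genes had 7 regions with 1 gained, trophoblast genes 8 with 2, neural genes 6 with 1 (Map2, 25.9 to 76.9 reads) and primitive streak and mesoderm genes 6 with 1, all by the FDR in the authors' deposited table. Share of other cells in the cultures was not tested.

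Gene families chosen after their values were seen are described without a reading, beside the same shares over all promoter regions (7.52% and 3.31% in DKO, 9.21% and 3.73% in dCD). Of all promoter regions 70.4% were above 0 in both formative mutants. High-CpG promoters were above 0 in each mutant more often than promoters at large. Clustered protocadherin genes, whose alternative promoters specify neuronal identity, had 19 regions, with formative medians of 1.06 in DKO (11 past 2-fold higher, 0 lower) and 0.86 in dCD (6 and 0), and 19 of 19 above 0 in both. Pcdhb12 held 66.0 reads in formative WT, 53.9 in floxed, 153 in DKO and 149 in dCD. Zinc finger genes named Zfp had 231 regions, with medians of 0.66 and 0.74, 29 and 51 past 2-fold higher and 0 lower. Replication-dependent histone genes had 28 regions, 25 of them high-CpG, with medians of 0.50 and 0.75 and 28 of 28 above 0 in both. Defensin genes had 12 regions, 11 of them low-CpG, with medians of -0.91 and -1.36, and 5 and 8 were past 2-fold lower. Olfactory receptor genes had 66 regions, 49 low-CpG, with medians of -0.03 and 0.11 (0.18 and 0.51 with centring), 14 and 17 lower and 11 and 5 higher. Members of each family share sequence and are often neighbours, so they are not independent.

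The authors' deposited table also carries fold changes of H3K27ac, a mark of active promoters and enhancers, and of RNA for these regions, from samples that are not analysed here. At promoters the H3K27ac median of DKO minus WT in the authors' deposited table was 0.51 in naive and 0.47 in formative cells, against 0.01 and -0.25 at distal regions. High-CpG promoters had 0.64 and 0.83 and low-CpG promoters 0.22 and -0.26 in the authors' deposited table. High-CpG distal regions had 0.39 and 0.60 and low-CpG distal regions -0.00 and -0.30 in the authors' deposited table. Both marks were thus mostly higher at high-CpG promoters of DKO cells, H3K4me1 against floxed and H3K27ac against WT. The same held at high-CpG regions beyond 1 kb, so it was not particular to promoters. Across the 10362 promoter regions, H3K4me1 and the H3K27ac of the authors' deposited table had a Pearson r of 0.31 (Spearman rho 0.35) for formative DKO minus WT, with the WT and DKO lines in common. In the authors' deposited table the RNA median of DKO minus WT over the 4351 promoter regions with an RNA value was 0.07 in naive and 0.09 in formative cells. For the 312 of the 779 promoters at least 2-fold higher in formative DKO that have an RNA value, the authors' deposited table gives an RNA median of 0.13 and an H3K27ac median over all 779 of 0.80. At the promoters at least 2-fold higher in naive DKO the naive RNA median in the authors' deposited table was 0.40 (141 with an RNA value), and at those at least 2-fold lower it was -0.94 (55 with a value). RNA in naive DKO against WT was thus mostly higher at the former and lower at the latter. These sets and the 779 were chosen by DKO minus floxed, so their control is not that of the RNA and H3K27ac values. Across promoter regions, naive DKO minus WT had a Pearson r of 0.32 (Spearman rho 0.27) with the RNA and 0.21 (0.24) with the H3K27ac of the authors' deposited table, and formative DKO minus WT 0.18 (0.15) with the RNA.

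Across the WT transition the readouts moved in the same direction. At gained promoters the authors' deposited table gives a median H3K27ac change of 1.00 and, for 206 with RNA, an RNA change of 1.41. At lost promoters it was -0.33 and, for 61 with RNA, -1.10 in the authors' deposited table. At promoters called neither way the authors' deposited table has 0.07 and 0.19. In DKO cells the same gained promoters had changes of 0.41 in H3K27ac and 0.97 in RNA in the authors' deposited table, where their H3K4me1 median was 0.21. At lost promoters the DKO changes in the authors' deposited table were -0.27 and -0.10. Across 4351 promoter regions the H3K4me1 change and the RNA change of the authors' deposited table had a Pearson r of 0.32 (rho 0.29) in WT and 0.20 (rho 0.17) in DKO, as a description across regions, some of which share a gene.

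Distal regions around the called promoters differed in the same direction between WT states. For the 638 gained promoters with distal regions of the same gene name within 50 kb, the differences of those regions were averaged per gene. The median of these means was 0.41 in WT, and 79.0% of the loci were above 0. For 218 lost promoters it was -0.56, and for 8619 promoters called neither way -0.12. In formative DKO minus floxed, the distal surroundings of gained promoters had -0.44, of lost promoters 0.08 and of the rest -0.07, while the promoters themselves had -0.20, 0.35 and 0.44. In each class the promoter median of DKO minus floxed thus lay above the median of the distal surroundings.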

How the data were processed

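H3K4me1 CUT&RUN levels of 4 mouse embryonic stem cell lines in 2 states were used, 1 pooled column per group of 2 libraries. Levels are on a log2 scale normalized by the authors, per the file headers, and FDR values (adjusted p-values) and log2 fold columns of H3K27ac and RNA are the authors' deposited ones. The fold columns come from samples outside the 21 described in the labels. Trim Galore, Bowtie2, SEACR, DiffBind, deepTools and mm10 are named per the submitters' processing notes, and neither versions nor roles were given in the sources used here. Per the labels, the antibody number in the sample fields is known as that of an H3K4me1 antibody and the one in the extraction protocol as that of an H3K27ac antibody; which was used cannot be told from them, and the mark is named as labelled. The IgG control and MLL4 libraries, and 14 other level columns, were not analysed here. Handling of reads that match several places is not given in the sources used here.

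A level behaved as log2 of 1 plus a constant times reads divided by squared width (slope on log2 width -2.01, log2 constant 22.2 in both states). It was turned into normalized reads, which are compared within a region, and per kb between regions. Differences are of log2 levels. No test was made, since each group has 1 value; the tables hold no spread between libraries, and precision is unknown. Members and gene lists were chosen with earlier results of these data known. Named were the 8 gained and 8 lost promoters of largest size (FDR under 0.05 and at least 32 reads in the higher group), the 5 highest and 5 lowest per mutant comparison with at least 32 reads, list members past 2-fold or FDR, and others marked as chosen after values were seen. 271 gene names turned into dates stayed unnamed. Start sites and sequences were from RefSeq on mm10. Analyses used Python 3.11.15, pandas 2.3.3 and numpy 2.4.6, figures matplotlib 3.10.9. Count steps were tested on simulated data. Alternatives were 2 scalings, a 1.5-fold threshold, FDR 0.01, a read minimum, members within 500 bases, 1 region per gene, chromosomes 8, 14, 17 and X left out, CpG over the whole region and high-CpG regions alone. 1 list member is not reported here.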

Additional observations from a re-analysis of the deposited data

How the results depend on the processing

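No paired analysis was possible because the deposited columns pool the libraries of a group, and for the same reason no library could be left out. Members within 500 bases, 1 region per gene, and leaving out chromosomes 8, 14, 17 and X kept 22 of 22 shares of promoter regions within 1.5 times. Neither scaling reversed any of the 76 results at named promoters, and 2 fell under 2-fold. Values are relative to a scaling whose base is not given in the sources used here.

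Shares below are percent of promoter regions higher, then lower. At 1.5-fold in place of 2-fold they were 16.9 and 6.43 for WT between states, 11.6 and 7.64 for floxed, 3.46 and 2.01 for DKO, 10.5 and 3.26 for dCD, 29.0 and 6.77 for naive DKO minus floxed, 33.9 and 6.33 for naive dCD minus WT, 6.69 and 4.97 for naive floxed minus WT, 34.8 and 7.51 for formative DKO minus floxed, 40.7 and 8.24 for formative dCD minus WT, and 2.99 and 5.24 for formative floxed minus WT. With every group centred on its median they were 12.7 and 1.63 for naive DKO minus floxed, 28.1 and 0.666 for naive dCD minus WT, 1.26 and 0.791 for naive floxed minus WT, 18 and 2.11 for formative DKO minus floxed, 39.1 and 1.51 for formative dCD minus WT, and 0.531 and 0.772 for formative floxed minus WT. With quantile scaling they were 11.0 and 1.62, 24.4 and 0.917 for the naive mutants, 12.7 and 2.03, 28.9 and 1.58 for the formative ones, 1.37 higher for naive floxed minus WT, and 0.463 and 0.782 for formative floxed minus WT. With at least 32 reads they were 0.111 and 0.0890 for DKO between states, 0.488 and 0.377 for dCD, 0.306 and 0.808 for naive floxed minus WT, and 0.773 lower for formative floxed minus WT. An FDR under 0.01 left 2.98 gained and 1.23 lost, by construction fewer.

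With high-CpG regions alone the promoter median exceeded the distal one by 0.15, 0.21, 0.15 and 0.20 (naive DKO, naive dCD, formative DKO, formative dCD). With CpG taken over the whole region, the medians of high, intermediate and low-CpG promoters were 0.60, 0.52 and 0.28 for naive DKO, 0.68, 0.63 and 0.28 for naive dCD, 0.61, 0.59 and 0.28 for formative DKO, and 0.74, 0.72 and 0.31 for formative dCD, so that low-CpG values reversed for both dCD comparisons and formative DKO. The cause was not tested.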
